A study of Danio rerio with 16 samples.

Results

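The comparison described here sets zebrafish embryos homozygous for the nz171 allele of rad21 against wild type embryos at 24 hours post-fertilization (hpf). Membership followed the array titles: 4 mutant and 4 wild type arrays at this age, 8 of the 16 arrays in the series. Each array carried RNA from its own pool of 50 whole embryos without their chorions, raised in embryo medium, and the labels call the pools biological replicates. The labels do not say whether the wild type embryos were siblings of the mutants, and they name no strain background. The other 8 arrays, from further pools of the same genotypes at 48 hpf, served to share the estimate of the spread and to set the effect at 24 hpf beside a later one. Because whole embryos were measured, fewer cells of a type and less RNA per cell cannot be told apart.

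The gene mutated in these embryos encodes a kleisin, the part that closes the ring-shaped cohesin complex around DNA. Cohesin holds sister chromatids together from replication until anaphase, and it also extrudes and holds chromatin loops that bring enhancers near promoters. A zebrafish embryo begins life with maternal cohesin, so homozygous mutants divide and form a body axis before the supply runs down. At this age the wild type embryo has somites with contracting muscle, a beating heart, a regionalized brain, and tissues that still divide fast.

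The targeted transcript, rad21a, read 10.09, 10.48, 10.55 and 10.40 in log2 intensity in wild type replicates 1 to 4 and 6.58, 6.72, 7.06 and 6.83 in the mutant replicates. Every mutant array lay far below every wild type array. Median intensity per array lay between 45.5 and 47.3. Probe sets for 5 foreign sequences absent from zebrafish gave a background with a median of 4.66 on the log2 scale, near which fold changes are compressed. Over the 16 arrays this background ranged from 2.77 to 7.22. Many genes named below lie inside that range, such as dkk1b in both genotypes, whether or not it is repeated there. Wild type replicate 1 stood apart from its group, with a mean correlation of 0.985 to the other wild type arrays against 0.992 for each of the others. For acta1, a muscle actin with control probe sets at both transcript ends, the log2 excess of the 3' over the 5' end ran from 3.03 to 3.15 in wild types and from 3.57 to 3.78 in mutants (difference 0.616, exact two-sided permutation p = 0.0286, the smallest that 4 against 4 arrays allow). For GAPDH the same difference was 0.124 (exact permutation p = 0.143). The part of these array differences in the results below was not tested.

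A probe set was called when its limma adjusted p was under 0.05, with no minimum fold. Of 15502 probe sets, 505 were higher (3.26%) and 634 lower (4.09%) in mutants, 7.35% in all. Counted once per gene, 764 of 8793 genes were called, which is 8.69%, with 317 higher (3.61%) and 447 lower (5.08%). The median log2 change of all genes was -0.0048. Most called changes were small: the median size was 1.45-fold among the genes that rose and 1.52-fold among those that fell, and 15 and 63 of them reached 2-fold. Of the 317 genes that rose, 291 had all mutant arrays above all wild type arrays, and 404 of the 447 that fell had them below. Genes named below as the largest changes were chosen to meet this, so their lack of overlap adds no support. Among the 2931 genes with the lowest mean level 1.88% were called higher and 2.63% lower, against 4.85% and 6.01% of the 2931 with the highest. Without a single array the number of called probe sets ran from 646 to 1192. Wild type replicates 2 and 3, when omitted in turn, left 738 and 662 calls, and mutant replicates 3 and 4 left 694 and 646. Fewer arrays also lower the power of the test, so a lost call alone does not show that a change rested on the omitted array.

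The 48 hpf pools, measured on other arrays than the 24 hpf pools, gave a second reading of the same genes. The calls at both ages used the same estimate of each probe set's spread, so they were not independent. A gene with a small shared spread was called more easily at both ages. The part of this in the overlap of calls was not tested. Of the 317 genes higher at 24 hpf, 159 (50.2%) were also called higher at 48 hpf, where 9.66% of all genes were, and 90.2% had the same sign. Of the 447 genes lower at 24 hpf, 229 (51.2%) were called lower at 48 hpf, against 8.18% of all genes, and 91.5% had the same sign. Only 5 of the first group and 2 of the second were called in the opposite direction at the later age.

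**Figure D1:**
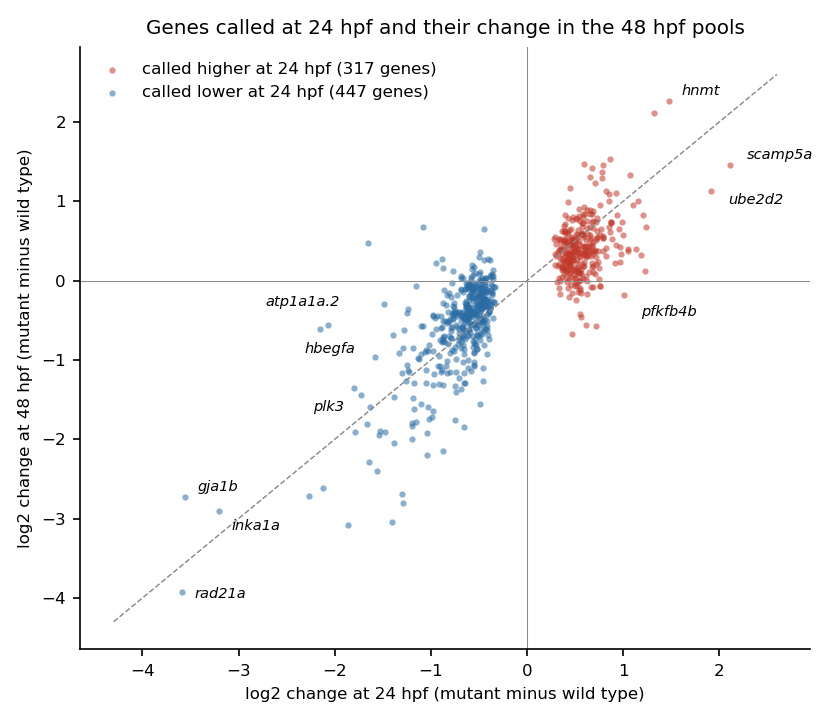
Each point is a gene called at 24 hpf, with its log2 change (mutant minus wild type) at 24 hpf on the horizontal axis and at 48 hpf on the vertical axis, red for the 317 genes called higher and blue for the 447 called lower. The dashed line marks equal change. Most points share their sign at both ages, with atp1a1a.2 and pfkfb4b among those that lie far from the line.

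Some of the factors that build ribosomes fell. In the nucleolus, RNA polymerase I makes the ribosomal RNA precursor, small nucleolar ribonucleoproteins (snoRNPs) guide its chemical modification, and the small subunit processome and large subunit factors fold and cut it. Of 11 measured snoRNP and RNA modification genes 6 fell, of 46 processome genes 17 fell and of 46 large subunit assembly genes 16 fell. No member of these lists rose. The shares that fell were 54.55%, 36.96% and 34.78%, against 5.08% of all genes. The median log2 changes of the lists were -0.50, -0.50 and -0.41. The counts of the larger lists varied when single arrays were left out. The processome count was 10 when wild type replicate 3 or 4 was left out, 7 when mutant replicate 3 was and 5 when mutant replicate 4 was. The large subunit count was 8 without any of wild type replicates 3 and 4 and mutant replicate 3, and 4 without mutant replicate 4. Their medians stayed between -0.56 and -0.30 when single arrays were left out.

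Among the modification genes, dkc1 encodes dyskerin, the pseudouridine synthase of H/ACA snoRNPs. Its log2 intensity was 8.63, 8.43, 8.38 and 8.53 in wild type arrays and 7.67, 7.996, 7.50 and 7.24 in mutant arrays. All 4 mutant arrays lay below all wild types, a 1.85-fold fall (log2 change -0.89 ± 0.17, SE of the fit, adjusted p = 0.00389). The H/ACA assembly factor naf1 fell by 0.49 on the log2 scale and the RNA cytosine methyltransferase nop2 by 0.77. In the processome, mphosph10 read 7.50, 6.84, 6.77 and 7.28 in wild type arrays and 6.27, 6.47, 6.16 and 6.07 in mutant arrays, again without overlap (-0.86 ± 0.15, adjusted p = 0.00193). Its partner imp4 changed by -0.84, utp15 by -0.62 and the late 40S maturation factor tsr1 by -0.76. A further probe set of imp4 gave -0.77 and was called too.

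Large subunit genes that fell included the nucleolar GTPases gnl3l (-0.73 ± 0.13, adjusted p = 0.00208) and gnl3 (-0.68 ± 0.15), the 5S particle factor rrs1 (-0.68 ± 0.13), rrp15 (-0.63 ± 0.12) and ppan (-0.60 ± 0.14). For gnl3l the wild type arrays read 8.42, 8.21, 8.07 and 8.35 and the mutant arrays 7.76, 7.65, 7.35 and 7.38, so the groups did not overlap. The call of ppan ended without mutant replicate 4 (-0.49). Of 17 subunits of RNA polymerases I and III, 4 fell, 23.53% against 5.08% of all genes: polr1b (-0.79), polr1c (-0.51), polr1g (-0.48) and polr3d (-0.40). Of these, polr1b alone was called whichever single array was left out. The list count was 2 without wild type replicate 1 or 4 and 1 without mutant replicate 3 or 4, and further probe sets of polr1b (-0.20) and polr1g (-0.33) were not called. The calls of polr1g and polr1c ended without wild type replicates 1 and 4 or mutant replicates 3 and 4, that of polr1c without mutant replicate 2 too (-0.49 to -0.35 and -0.52 to -0.35), and that of polr3d without wild type replicates 2 and 3 or mutant replicates 2, 3 and 4 (-0.43 to -0.33). Outside the naming rule and chosen after its value was seen, pprc1, which encodes a coactivator of nuclear genes for mitochondria, fell 2.14-fold (-1.10 ± 0.22, adjusted p = 0.00532).

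Ribosomal proteins themselves were rarely called, 1.41% against 8.69% of all genes. Among 71 cytosolic ribosomal protein genes 1 was called, rps27l (0.86 ± 0.19, adjusted p = 0.0107), a p53-responsive paralog of a small subunit protein, and the median log2 change was -0.0017. At an unadjusted p under 0.05, 1 rose and 1 fell. Their mean level ran from 13.21 to 13.31 in wild type arrays and from 13.22 to 13.29 in mutant arrays, near the highest mean of any gene (14.28). Whether changes at such levels were compressed was not tested. By limma, 0 of 8 RNA polymerase II subunits and 0 of 46 proteasome subunits were called, against 8.69% of all genes. The limma counts at an unadjusted p under 0.05 were 0 and 3, where 23.9% of all genes passed.

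**Figure D2:**
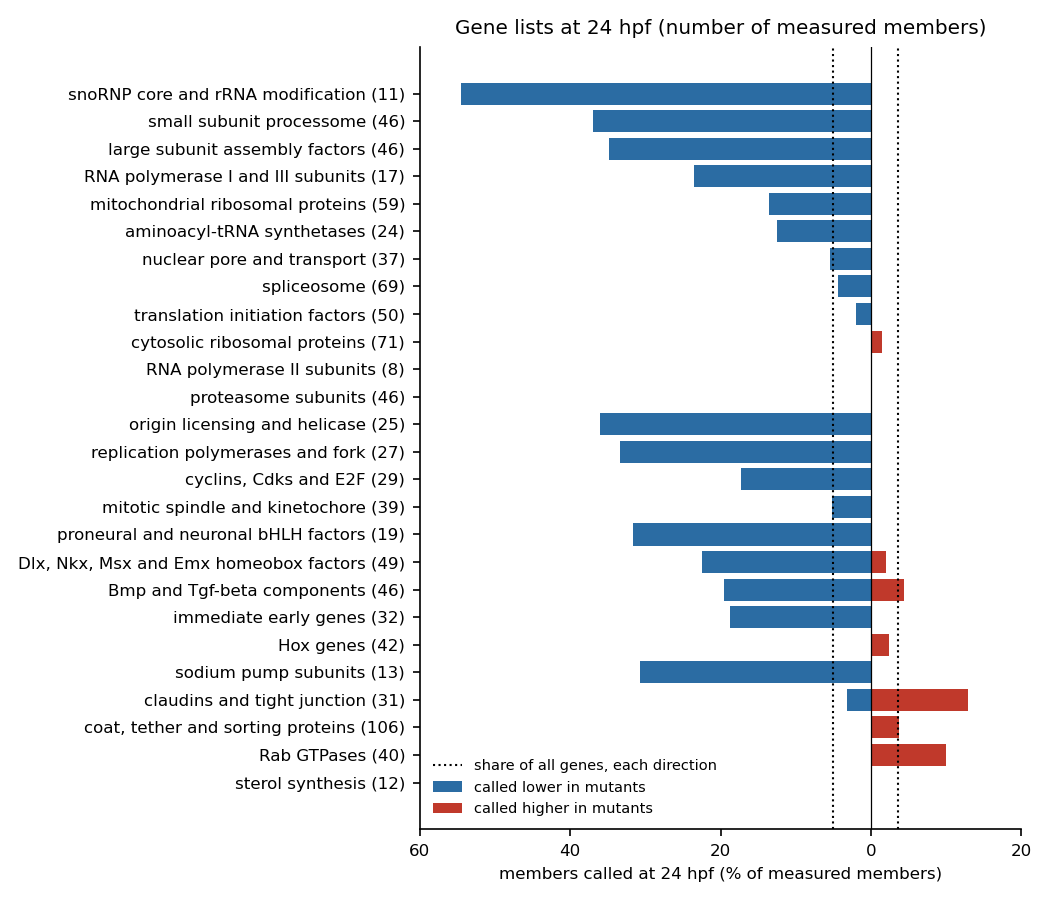
Bars give the percentage of each list's measured members (number in brackets) called lower (blue, to the left) or higher (red, to the right) in mutants at 24 hpf, and the dotted lines mark the shares of all genes, 5.08% lower and 3.61% higher. Nucleolar and replication lists extend well to the left of their dotted line, while cytosolic ribosomal proteins, RNA polymerase II and the proteasome stay near 0.

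The mean level of each list in each array showed how the arrays within a group were ordered. The processome mean was 7.999, 7.63, 7.67 and 7.70 in wild type arrays and 7.43, 7.52, 7.15 and 6.98 in mutant arrays. Wild type replicate 1 was the highest of its group and mutant replicates 3 and 4 the lowest of theirs, with no overlap between groups. Large subunit factors had the same order at the extremes, with 8.19, 7.91, 7.99 and 8.03 against 7.81, 7.80, 7.55 and 7.37. Mitochondrial ribosomal proteins did too, and there the groups nearly met, with 8.18, 7.75, 7.73 and 7.72 in wild type arrays and 7.71, 7.72, 7.44 and 7.41 in mutant arrays. The 13 fast skeletal muscle genes ran along the arrays in the other direction. It was 9.56 on average in wild type replicate 1 and 10.85, 10.73 and 10.72 in the others, and 8.99, 9.21, 9.91 and 10.84 in mutants. The arrays thus differed within groups in 2 gene groups at once, and the part of that difference in the genotype effect was not tested.

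**Figure D3:**
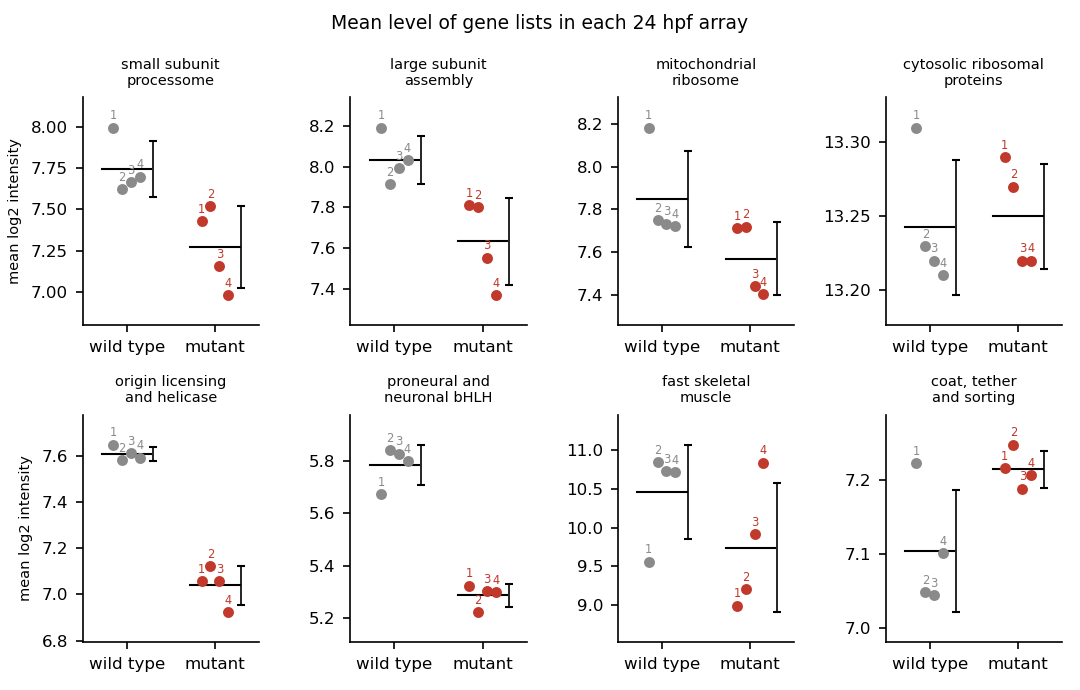
Each panel plots the mean log2 intensity of a gene list (vertical axis) in the 4 wild type (grey) and 4 mutant (red) arrays at 24 hpf, labelled by replicate number, with the group mean as a line and the SD (n = 4) as a bar. Each vertical axis has its own range. Origin licensing genes and proneural and neuronal factors separate the genotypes widely. Nucleolar lists separate them with mutant replicates 3 and 4 lowest, and fast skeletal muscle overlaps.

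Of 59 mitochondrial ribosomal proteins, 8 fell (13.56% against 5.08% of all genes) and 0 rose, with a median of -0.27. Omitting wild type replicate 1 left 4, omitting wild type replicate 3 left 5, and omitting mutant replicate 3 or 4 left 3. The members with the smallest adjusted p were mrpl49 (-0.56 ± 0.12), mrpl12 (-0.69 ± 0.15) and mrpl43 (-0.42 ± 0.09), the last with its wild type arrays below the foreign sequence median. For mrpl12 the wild type arrays read 9.14, 8.85, 8.85 and 8.89 and the mutant arrays 8.40, 8.52, 7.99 and 8.06, without overlap.

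Nuclear pore, transfer RNA and elongation genes were called singly. The nuclear pore gene nup35 read 7.14, 7.34, 7.41 and 7.58 in wild type arrays and 6.33, 6.60, 6.39 and 6.21 in mutant arrays, a 1.98-fold fall without overlap (-0.98 ± 0.15, adjusted p = 0.000816). It was 1 of 2 called among 37 nuclear pore and transport genes, 5.41% against the 5.08% of all genes that fell, and the other was nup88 (-0.38). The list median was -0.30, and the count was 5 without wild type replicate 1 and 1 without wild type replicate 4 or mutant replicate 3 or 4. Of 24 aminoacyl-tRNA synthetase genes 3 fell (12.5%): the tryptophan enzyme wars1 (-0.53), the phenylalanine enzyme farsa (-0.49) and the scaffold aimp1a (-0.48), with a list median of -0.34. The elongation factor gene eef2a.1 (-0.77) and the ribosome recycling factor gene abce1 (-0.60) fell as well, the first with mutant arrays between 4.06 and 4.49, below the foreign sequence median. Single arrays ended several of these calls: nup88 without wild type replicates 1 and 4 or mutant replicates 3 and 4 (-0.38 to -0.31), farsa without wild type replicates 1 and 3 or any mutant array (-0.53 to -0.36), and abce1 without any wild type array or mutant replicates 3 and 4 (-0.63 to -0.52).

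Some DNA replication genes fell as well. Before each S phase the origin recognition complex loads the Mcm helicase, geminin then blocks reloading, and Cdc45, Gins and Wdhd1 join the active fork. Of 25 origin licensing and helicase genes 9 fell (36% against 5.08% of all genes) and 0 rose, with a median of -0.57. In 18 of the 25 all mutant arrays lay below all wild type arrays, where 8.95% of all genes did. Of 27 polymerase and fork genes 9 fell (33.33%) and 0 rose, with a median of -0.49. The mean level of the origin genes was 7.65, 7.58, 7.61 and 7.59 in wild type arrays and 7.06, 7.12, 7.06 and 6.92 in mutant arrays, a narrow spread within each genotype that wild type replicate 1 did not break. The counts of calls were less steady than these levels. For the origin genes they were 2, 3 and 3 without wild type replicates 2, 3 and 4 and 4, 4, 3 and 2 without mutant replicates 1 to 4. For the fork genes they were 4 and 5 without wild type replicates 2 and 3 and 5 and 3 without mutant replicates 3 and 4. In a fit of the 24 hpf arrays alone they were 18 and 14.

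Among these genes gmnn, which encodes geminin, had the largest log2 decrease. It read 7.29, 6.58, 7.03 and 7.36 in wild type arrays and 5.68, 5.79, 5.67 and 6.01 in mutant arrays, so that the highest mutant lay well below the lowest wild type (2.42-fold, -1.28 ± 0.17, adjusted p = 0.000274). The origin subunit orc5 fell by 0.88 on the log2 scale, the helicase subunit mcm2 by 0.80, the fork scaffold wdhd1 by 0.63 and the polymerase epsilon subunit pole4 by 0.49. These calls ended without some arrays: orc5 without wild type replicates 2 and 3 or mutant replicates 3 and 4 (-0.87 to -0.75), mcm2 without any array but wild type replicate 1 (-0.84 to -0.73), wdhd1 without wild type replicates 2 and 4 or mutant replicate 4 (-0.60 to -0.57), and pole4 without mutant replicate 4 (-0.41). A pair of genes outside the naming rule, chosen after their values were seen, kept their calls without any single array. They were mcmbp, which encodes an Mcm-binding protein (-1.12 ± 0.16, adjusted p = 0.000392), and mybl2b, a transcription factor of proliferating cells (-1.13 ± 0.15, adjusted p = 0.000214).

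Of 29 cyclin, Cdk and E2F genes 5 fell, 17.2% against 5.08% of all genes, with a median of -0.14. Of 39 spindle and kinetochore genes 2 fell (5.13%), spc24 (-0.62) and the anaphase-promoting complex subunit anapc4 (-0.48), with a median of -0.13. A further probe set of anapc4 gave -0.39 and was not called. The G1 cyclin ccnd1 read 10.52, 10.71, 10.86 and 10.67 in wild type arrays and 10.07, 10.02, 10.10 and 9.96 in mutant arrays, without overlap (-0.65 ± 0.12, adjusted p = 0.00221), and its further probe set gave -0.68. The ubiquitin ligase subunit skp2, which removes Cdk inhibitors, fell by 0.67. The remaining calls were ccne1 (-0.56), ccnb2 (-0.51) and e2f7 (-0.44, below the foreign sequence median in both groups). They and skp2 lost their calls without some single arrays, while the changes kept their sign. For skp2 these were wild type replicates 3 and 4 and mutant replicates 1, 3 and 4 (-0.66 to -0.60). For ccne1 they were wild type replicates 1, 2 and 4 and mutant replicates 2, 3 and 4 (-0.57 to -0.42). For ccnb2 they were wild type replicates 2, 3 and 4 and mutant replicates 2, 3 and 4 (-0.55 to -0.41). For e2f7 they were wild type replicates 2, 3 and 4 and mutant replicates 1, 2 and 3 (-0.49 to -0.32).

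Single chromatin regulators were called in both directions, while both lists counted here had shares not far from those of all genes. Of 56 histone-modifying enzymes 4 fell and 2 rose, which is 10.7% against 8.69% of all genes, with a median of -0.01. The arginine methyltransferases prmt5 (-0.60 ± 0.10, adjusted p = 0.00152), prmt7 (-0.66 ± 0.11) and prmt1 (-0.48) fell along with the Polycomb subunit suz12a (-0.48, chosen after its value was seen). The histone deacetylase gene hdac9b rose 1.84-fold (0.88 ± 0.14, adjusted p = 0.000902), from 4.23, 4.00, 4.14 and 4.19 in wild types to 4.82, 4.75, 5.11 and 5.39 in mutants. It thus rose from below to above the foreign sequence median, within the range of those sequences. The histone demethylase gene kdm1a rose by 0.46. Of 68 remodelling and Polycomb genes 3 fell, 4.41% against 5.08% of all genes: the helicase hells (-0.87), baz1b (-0.79) and chd1 (-0.47). A further probe set of hells gave -1.05 and was called, and that of chd1 gave -0.32 and was not. The DNA methyltransferase gene dnmt3bb.3 fell by 0.63 on the log2 scale, its mutant arrays all below the foreign sequence median. The count of histone-modifying enzymes that fell was 2 without mutant replicate 4. Calls ended without single arrays for prmt1 (wild type replicate 3, mutant replicates 3 and 4, -0.47 to -0.43), suz12a (wild type replicate 2, mutant replicates 2 and 4, -0.47 to -0.44), hells (any array, -0.95 to -0.77), baz1b (any but wild type replicate 1, -0.86 to -0.70) and chd1 (wild type replicates 2 and 3, mutant replicate 4, -0.44 to -0.41).

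Several secreted signals and antagonists fell by more than 2-fold. Bone morphogenetic proteins (Bmps) and other Tgf-beta ligands act through receptor kinases and Smad proteins, and Noggin, Follistatin and related proteins hold them outside the cell. Of 46 Bmp and Tgf-beta components 9 fell (19.57% against 5.08% of all genes) and 2 rose (4.348% against 3.61%). The list median was -0.07. The ligand gene bmp5 read 7.60, 7.53, 7.52 and 7.65 in wild type arrays and 6.61, 6.08, 5.95 and 6.11 in mutant arrays. Every mutant array was lower by about 1 log2 unit or more (2.62-fold, -1.39 ± 0.12, adjusted p = 2.55e-06). The ligand bmp3 fell 2.27-fold (-1.18 ± 0.15) and the activin subunit gene inhbb 1.63-fold (-0.70 ± 0.12).

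Antagonist genes were among those that fell. For fsta, a follistatin gene, the wild type arrays read 6.44, 6.50, 6.63 and 6.41 and the mutant arrays 5.53, 5.17, 5.54 and 4.98 (2.28-fold, -1.19 ± 0.14, adjusted p = 5.38e-05). No array overlapped, and a further probe set gave -1.52. The noggin gene nog1 fell 1.83-fold (-0.87 ± 0.16, adjusted p = 0.00239), with all mutant arrays below the foreign sequence median. The 2 members that rose, named after their values were seen, were gdf3, a ligand of the Nodal type (0.83 ± 0.17, adjusted p = 0.00534), and the follistatin-like gene fstl1b (0.53 ± 0.11, adjusted p = 0.0064).

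Of 38 Wnt components 4 fell, 10.5% against 5.08% of all genes, and 1 rose, with a median of -0.09, and 2 fell without mutant replicate 3. The Wnt co-receptor inhibitor gene dkk1b read 6.39, 6.56, 6.25 and 6.17 in wild type arrays and 5.20, 5.15, 5.05 and 5.03 in mutant arrays, tight groups about 1 log2 unit apart (2.35-fold, -1.23 ± 0.11, adjusted p = 6.11e-06). The Wnt-binding wif1 fell by 0.75, wnt11 by 0.55 and dkk3b, below the foreign sequence median in both groups, by 0.48, and the Wnt target sp5l rose by 0.65. Leaving out single arrays ended the calls of wnt11 (mutant replicate 3, -0.50), dkk3b (any but wild type replicate 1, -0.51 to -0.42) and sp5l (wild type replicates 2, 3 and 4 or mutant replicates 1, 2 and 3, 0.52 to 0.72). The Hedgehog-binding protein gene hhip was the only 1 of 13 Hedgehog components called, 7.69% against 8.69% of all genes. It read 6.82, 7.82, 7.64 and 7.94 in wild type arrays and 6.26, 6.42, 6.65 and 6.76 in mutant arrays, where wild type replicate 1 came close to the mutants (2.05-fold, -1.03 ± 0.20, adjusted p = 0.00492). The Notch target hey1, a transcriptional repressor, fell 2.26-fold (-1.18 ± 0.15, adjusted p = 0.00012).

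Retinoic acid, a vitamin A derivative that patterns hindbrain, somites and heart, is made by Aldh1a2 and degraded by Cyp26 enzymes. Of 21 measured genes of the pathway 2 fell and 1 rose, 14.3% called against 8.69% of all genes, with a median of -0.06. The gene aldh1a2 read 7.97, 7.84, 7.67 and 7.77 in wild type arrays and 6.50, 6.64, 6.50 and 6.69 in mutant arrays, a gap of about 1 log2 unit between the groups (2.35-fold, -1.23 ± 0.10, adjusted p = 1.96e-06). The degrading enzyme gene cyp26b1 fell 1.83-fold (-0.87 ± 0.15, adjusted p = 0.00166). Of its other probe sets 2 gave -0.92 and -0.71 and were called, and 1 gave -0.25 and was not. The receptor gene rarab rose by 0.40, and its call ended without wild type replicates 1, 2 and 4 or mutant replicates 3 and 4 (0.35 to 0.42). At 48 hpf aldh1a2 (-1.13) and cyp26b1 (-1.31) were again lower.

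Other secreted factors fell by more than 2-fold. The endothelin gene edn1, which signals ventral fate to the neural crest of the jaw arches, read 6.32, 6.23, 6.02 and 5.90 in wild type arrays and 5.32, 4.64, 4.67 and 4.82 in mutant arrays, without overlap (2.39-fold, -1.25 ± 0.15, adjusted p = 0.000116). It was 1 of 6 that fell among 16 pharyngeal arch genes, with prrx1a (-0.46) and members of the Dlx family. The 6 made up 37.5% of the list, against the 5.08% of all genes that fell. The arch count ran from 4 to 7 when single arrays were left out. Dlx genes were also counted in the homeobox list below, so the counts were not separate. The Egf receptor ligand gene hbegfa fell 2.98-fold (-1.58 ± 0.23, adjusted p = 0.000452), from 6.83, 7.59, 7.28 and 7.30 to 5.33, 5.77, 5.39 and 6.19, with every mutant below every wild type. The chemokine gene cxcl14 fell 2.52-fold (-1.33 ± 0.15, adjusted p = 6.32e-05).

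**Figure D4:**
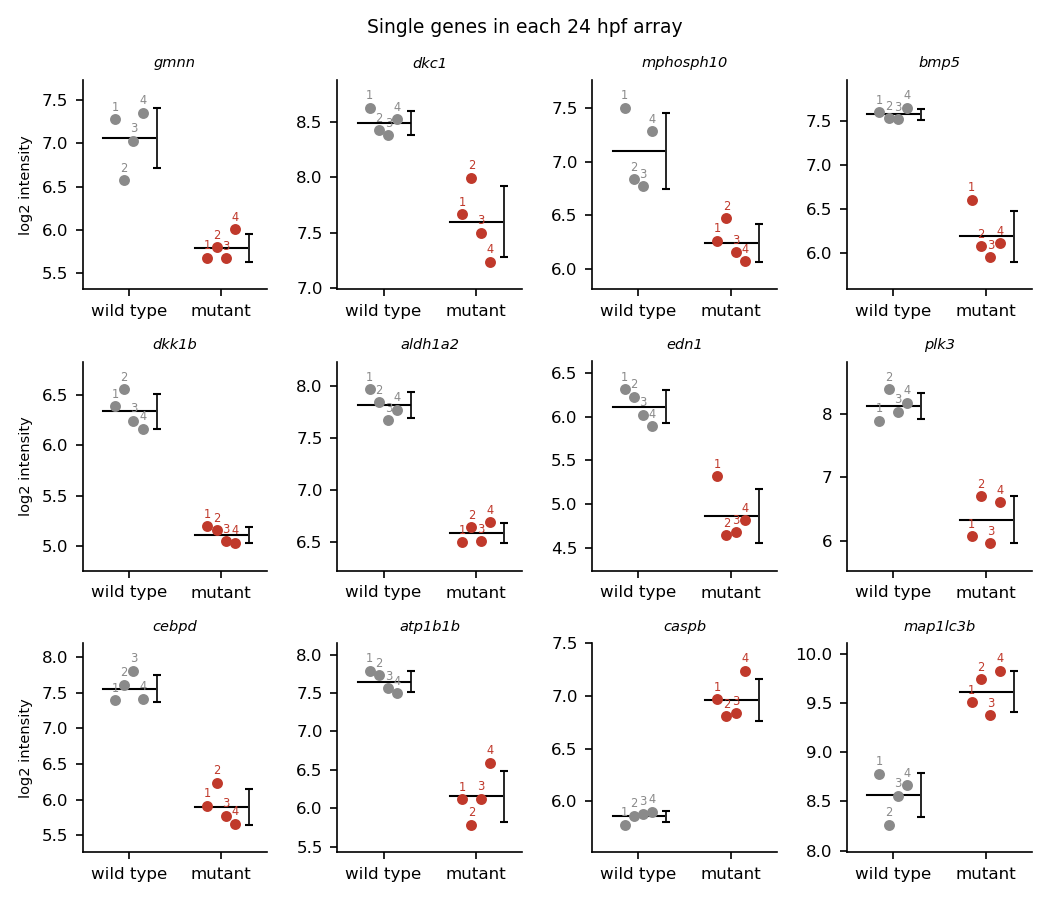
Log2 intensity (vertical axis, its own range in each panel) of 12 genes in the 4 wild type (grey) and 4 mutant (red) arrays at 24 hpf, labelled by replicate number, with the group mean as a line and the SD (n = 4) as a bar. In each of the 12 genes the mutant arrays lie on 1 side of all wild type arrays, below them in 10 and above them in caspb and map1lc3b. For bmp5, plk3, cebpd, atp1b1b, caspb and map1lc3b this was a condition for being named. The other panels show list members named for a small adjusted p, and 404 of the 447 genes that fell had no overlap.

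Transcription factors that pattern the head and the nervous system fell at selected genes. Of 49 homeobox factors of the Dlx, Nkx, Msx, Emx and related families 11 fell and 1 rose, with a median of -0.13. These were 22.45% and 2.041%, against 5.08% and 3.61% of all genes. The count that fell was 5 without wild type replicate 3 and 7, 6 and 7 without mutant replicates 2, 3 and 4. The midbrain-hindbrain gene en1b read 6.27, 6.89, 6.74 and 6.40 in wild type arrays and 5.84, 5.63, 5.62 and 5.65 in mutant arrays, without overlap (-0.89 ± 0.13, adjusted p = 0.000384). The forebrain gene emx3 fell by 0.72 and nkx2.1, a gene of ventral forebrain and thyroid, by 0.54, the latter below the foreign sequence median in both groups. The hypothalamic homeobox gene otpb fell 2.61-fold (-1.39 ± 0.23, adjusted p = 0.00132), from wild type arrays between 5.05 and 5.78 to mutant arrays between 3.96 and 4.08, all below that median.

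Of 24 genes of the Pax, Eya, Dach and sine oculis families 5 fell, 20.83% against 5.08% of all genes. The pharyngeal endoderm and sclerotome gene pax9 read 5.91, 6.17, 6.13 and 5.90 in wild type arrays and 4.88, 5.28, 4.89 and 4.94 in mutant arrays (2.04-fold, -1.03 ± 0.15, adjusted p = 0.000586). The groups did not overlap, and pax9 was lower at 48 hpf too (-1.59). The others were dacha (-0.89 ± 0.17, its mutant mean below the foreign sequence median), eya1 (-0.59 ± 0.10) and the eye field genes six6a (-0.46) and six6b (-0.42, with the same limit). The list count was 3 without wild type replicate 2 or 3 or mutant replicate 3 or 4. The calls of the last pair ended without wild type replicates 2 and 3 or mutant replicates 3 and 4 for six6a (-0.44 to -0.40) and without any single array for six6b (-0.46 to -0.36). Of 21 Gata and Tbx factors 2 fell, 9.52% against 5.08% of all genes. They were eomesa (-0.97 ± 0.14, adjusted p = 0.000521), a forebrain gene at this age, and tbx15 (-1.18 ± 0.18, adjusted p = 0.000566). The mutant mean of tbx15, 3.80, lay below the foreign sequence median, and a further probe set of tbx15 gave 0.02 and was not called.

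Proneural basic helix-loop-helix factors start neuron formation. Of 19 measured proneural and neuronal factors of this family 6 fell (31.58% against 5.08% of all genes) and 0 rose. The list median was -0.36, and 6 of the 19 had a wild type mean below the foreign sequence median. The list mean was 5.67, 5.84, 5.83 and 5.80 in wild type arrays and 5.32, 5.22, 5.30 and 5.30 in mutant arrays, an even and narrow spread in both groups. The neuronal member neurod6b fell by 0.65 on the log2 scale, within the background range. The neuronal cell surface gene islr2 fell 3.11-fold (-1.64 ± 0.25, adjusted p = 0.000606), the neural Sox factor sox11b 1.56-fold (-0.64 ± 0.11, with 1 of its 2 other probe sets also called) and slc18a3a, which loads acetylcholine into vesicles, 1.88-fold (-0.91 ± 0.13, adjusted p = 0.000475), to a mutant mean of 4.53, under the foreign sequence median. By contrast, 1 of 42 Hox genes was called, 2.38% against 8.69% of all genes. It was hoxc9a (0.39 ± 0.10, adjusted p = 0.0247), whose call ended without wild type replicates 2, 3 and 4 or mutant replicates 1, 2 and 3 (0.36 to 0.40), and the list median was 0.05.

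Immediate early genes are those that cells switch on quickly after growth factors, stress or blood flow. Of 32 measured 6 fell (18.75% against 5.08% of all genes) and 0 rose, with a median of -0.33. The count that fell ran from 4 to 10 when single arrays were left out, and was 10 without wild type replicate 1. The list mean of that array, 6.23, lay inside the mutant range of 5.88 to 6.34, while the other wild types read 6.87, 6.82 and 6.69. With the replicate number as a block 9 fell. The stress-responsive kinase gene plk3 read 7.90, 8.40, 8.04 and 8.18 in wild type arrays and 6.07, 6.70, 5.96 and 6.60 in mutant arrays, without overlap (3.47-fold, -1.80 ± 0.20, adjusted p = 4.38e-05). It also belongs to the p53 target list, in which 3 of 18 rose (16.67% against 3.61% of all genes) and plk3 alone fell. The transcription factor gene cebpd fell 3.16-fold (-1.66 ± 0.18, adjusted p = 3.91e-05), from 7.39, 7.61, 7.81 and 7.42 to 5.91, 6.24, 5.78 and 5.66, also without overlap. A further probe set of cebpd gave -0.03 and was not called. The flow-responsive factor klf2b fell by 0.83 and ier5l by 0.86.

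A few single genes outside these lists fell by more than 2-fold. The lipase gene lpla read 6.30, 6.48, 6.20 and 6.25 in wild type arrays and 4.47, 4.75, 4.57 and 4.90 in mutant arrays, without overlap (3.11-fold, -1.64 ± 0.14, adjusted p = 1.5e-06). Chosen after their values were seen, s1pr1, a receptor for the blood lipid sphingosine 1-phosphate, fell 2.23-fold (-1.16 ± 0.17, adjusted p = 0.00061, a further probe set -1.49), and ptgs2a, a prostaglandin synthase, 2.45-fold (-1.29 ± 0.17, adjusted p = 0.000241). Among 7 measured endothelial markers 0 fell and 1, the transcription factor erg, rose (0.54), which is 14.29% against 3.61% of all genes. Their median was 0.07. The call of erg ended without any array but mutant replicate 1 (0.41 to 0.59).

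Ion transport showed some of the widest changes. The sodium pump is a pair of an alpha subunit, which moves the ions, and a beta subunit, and ionocytes of the skin hold much of it. Of 13 pump subunit genes 4 fell (30.77% against 5.08% of all genes) and 0 rose. The alpha subunit gene atp1a1a.2 read 7.91, 8.04, 7.76 and 7.92 in wild type arrays and 5.59, 5.49, 5.57 and 6.69 in mutant arrays, with mutant replicate 4 nearer to the wild types but still below them (4.21-fold, -2.07 ± 0.23, adjusted p = 3.4e-05). The beta subunit gene atp1b1b read 7.79, 7.73, 7.56 and 7.50 against 6.12, 5.79, 6.12 and 6.59 (2.81-fold, -1.49 ± 0.18, adjusted p = 0.000109). Again mutant replicate 4 was the highest of its group and did not reach the wild types.

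The other subunits that fell were atp1b3b (-0.82 ± 0.13, adjusted p = 0.00121) and atp1a1b (-0.67 ± 0.16, adjusted p = 0.0146). The forkhead factor gene foxi1 fell 1.83-fold (-0.88 ± 0.12, adjusted p = 0.000255), with wild types between 5.77 and 6.03 and mutants between 4.89 and 5.18. It was placed in the ionocyte list, but its expression in ionocytes was not measured here. With the first pair of pump genes it made up the 3 of 6 ionocyte markers that fell, 50% against 5.08% of all genes. That pair was counted in both lists, so the counts were not separate. Of the 6 markers 2 had changes above 0, neither called.

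Fast muscle genes varied widely among arrays of the same genotype. Of 13 fast skeletal muscle genes 12 had a change below 0, with a median of -0.55. The median ranged from -0.79 to -0.32 when single arrays were left out. Only myhz1.3, a myosin heavy chain, was called, 7.69% of the list against the 5.08% of all genes that fell. It read 10.73, 11.57, 11.51 and 11.57 in wild type arrays and 8.27, 8.89, 9.24 and 10.35 in mutant arrays (4.46-fold, -2.16 ± 0.37, adjusted p = 0.00163). The mutants spread over about 2 log2 units without reaching the wild types. The parvalbumin gene pvalb1 was likewise low in wild type replicate 1 and high in mutant replicate 4, at 5.64, 7.75, 7.60 and 7.74 against 4.55, 4.34, 5.58 and 7.31, but here the groups overlapped and the difference did not pass (-1.74 ± 0.55, adjusted p = 0.0685). Without wild type replicate 1 the list had 4 called members and without mutant replicate 4 it had 7. In contrast, the slow muscle myosin gene smyhc1 stayed between 10.54 and 10.93 in all 8 arrays (0.17 ± 0.11, adjusted p = 0.417). The acta1 control difference given above moved with genotype, and its part in the muscle values was not tested.

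Cell contacts and matrix changed in both directions. Of 15 connexin genes 3 fell, 20% against 5.08% of all genes: gja1b, gjb8 (-0.69 ± 0.14, adjusted p = 0.00503) and gja2 (-0.47). The gene gja1b, which forms gap junctions in many tissues, fell from a mean of 8.12 to one of 4.57, below the foreign sequence median. Of 31 claudin and tight junction genes 4 rose, 12.9% against 3.61% of all genes, and cldn3c fell (-0.49). Those that rose were cldn3d (0.68 ± 0.14, adjusted p = 0.0087), cldn11b (0.60), cldng (0.53) and f11r.1 (0.51). The cldng value is uncertain, since its 3 other probe sets gave -0.86, -0.52 and 0.06, none of them called. The calls of these genes other than gja1b, gjb8 and cldn3d ended without some single arrays. That of gja2 ended without wild type replicates 2, 3 and 4 or mutant replicates 2, 3 and 4 (-0.51 to -0.31). That of cldn11b ended without mutant replicate 3 (0.53), and that of cldng without wild type replicates 1, 2 and 3 or mutant replicates 1, 2 and 4 (0.43 to 0.55). That of f11r.1 ended without wild type replicates 2 and 3 or mutant replicates 2, 3 and 4 (0.38 to 0.52), and that of cldn3c without any but wild type replicate 2 (-0.54 to -0.42).

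Among matrix genes, the cartilage protein gene matn4 read 5.97, 6.42, 6.63 and 6.61 in wild type arrays and 4.28, 4.37, 5.13 and 5.71 in mutant arrays, with mutant replicate 4 just below wild type replicate 1 (2.89-fold, -1.53 ± 0.24, adjusted p = 0.000995). The periostin gene postnb fell by 0.67, and its call ended without mutant replicates 1 and 2 (-0.60 and -0.55). The collagen-binding protein gene sparc rose by 0.44, a call that ended without mutant replicate 4 (0.37), and the fibulin gene fbln1 rose by 0.57, with a further probe set at 0.01 that was not called.

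Increases were fewer and smaller than decreases, and several concerned membranes and their turnover. The autophagosome gene map1lc3b read 8.78, 8.26, 8.56 and 8.66 in wild type arrays and 9.51, 9.74, 9.38 and 9.83 in mutant arrays, all mutants higher (2.06-fold, 1.05 ± 0.15, adjusted p = 0.00038). The late endosome GTPase gene rab7a rose 1.67-fold (0.74 ± 0.17, adjusted p = 0.0131), from 7.69, 8.41, 8.41 and 8.08 to 8.50, 8.94, 9.14 and 8.96, where the lowest mutant lay just above the highest wild type. Of 42 synaptic vesicle and exocytosis genes 3 rose, 7.14% against 3.61% of all genes, and slc18a3a fell. Those that rose were scamp5a, the endosomal fusion gene vamp8 (0.68 ± 0.15, adjusted p = 0.00976) and stx3b (0.48). The call of stx3b ended without wild type replicate 3 (0.44). For scamp5a, a vesicle membrane protein, mutant arrays read 6.36, 6.03, 7.17 and 7.66 against wild types between 4.58 and 4.82 (4.33-fold).

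The medians of the trafficking lists lay slightly above 0, where that of all genes was -0.0048. The share of coat, tether and sorting genes called higher was near that of all genes. Of 40 Rab GTPases, switches that direct vesicles, 29 had a change above 0, with a median of 0.15. Called higher were 4 of them, 10% against 3.61% of all genes: rab7a, rab1bb (0.56), rab15 (0.44) and rab5b (0.43). For rab1bb and rab15 the wild type means lay below the foreign sequence median. Of 106 coat, tether and sorting genes 80 had a change above 0, with a median of 0.11, and 4 were called higher, 3.77% against the 3.61% of all genes: exoc6b (0.50), trappc3 (0.48), ap2b1 (0.36) and snx3 (0.30). Both counts varied when single arrays were left out. The Rab count was 2, 1 and 1 without wild type replicates 2, 3 and 4 and 2 without mutant replicate 1 or 4. The coat count was 2, 0 and 0 without wild type replicates 2, 3 and 4 and 0, 1, 1 and 2 without mutant replicates 1 to 4. The mean of the coat genes in wild type replicate 1, 7.22, lay inside the mutant range of 7.19 to 7.25, while the other wild types read 7.05, 7.05 and 7.10. At 48 hpf 10 of the 40 Rab and 30 of the 106 coat genes were called higher, where 9.66% of all genes were, and 0 were called lower.

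Other increases spanned inflammation, transcription and growth. The inflammatory caspase gene caspb read 5.78, 5.86, 5.88 and 5.90 in wild type arrays and 6.97, 6.81, 6.84 and 7.24 in mutant arrays, about 1 log2 unit higher in every array (2.15-fold, 1.11 ± 0.11, adjusted p = 1.29e-05). A further probe set of caspb gave 0.46 and was not called. The chromatin genes msl1a (1.14 ± 0.16, adjusted p = 0.000441) and rybpb (1.05 ± 0.18, adjusted p = 0.00164) rose just over 2-fold, the latter within the background range. The heat shock regulator gene hsf1 rose 1.94-fold (0.96 ± 0.20, adjusted p = 0.00701) from a wild type mean below the foreign sequence median, with a further probe set at 0.10 that was not called.

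The heparin-binding growth factor gene mdkb read 9.25, 9.36, 9.23 and 9.31 in wild type arrays and 10.30, 10.07, 10.15 and 10.35 in mutant arrays, with small spread in both groups (1.91-fold, 0.93 ± 0.11, adjusted p = 6.32e-05). The gene txnipb, whose product restrains glucose uptake, rose by 0.96 and the phosphatase gene ctdsp2 by 0.88. The ubiquitin-conjugating enzyme gene ube2d2 rose 3.78-fold.

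Single enzymes of energy and nitrogen metabolism changed. Of the glycolysis, citric acid cycle and respiratory chain lists, 3.70%, 6.90% and 3.75% were called, against 8.69% of all genes. The gene pfkfb4b, which makes and removes the signal that speeds glycolysis, read 7.21, 7.63, 7.94 and 7.85 in wild type arrays and 8.57, 8.48, 8.70 and 8.94 in mutant arrays (2.02-fold, 1.01 ± 0.15, adjusted p = 0.000475). The mitochondrial adenylate kinase gene ak4 rose 1.99-fold (1.00 ± 0.14, adjusted p = 0.000359) and cox4i2, a cytochrome oxidase subunit induced by low oxygen in mammals, 1.90-fold (0.93 ± 0.13, adjusted p = 0.00038) from a wild type mean of 4.62, just under the foreign sequence median. The detoxifying transferase genes gstt1b (0.92 ± 0.14) and mgst3a (0.50 ± 0.08) rose too. Cytosolic malate dehydrogenase, mdh1ab, went the other way, from 7.97, 7.84, 8.11 and 8.27 to 6.89, 6.59, 6.71 and 7.02 (2.37-fold lower, -1.25 ± 0.15, adjusted p = 0.000116). Glutamine synthetase, glulb, fell 1.89-fold (-0.92 ± 0.12, adjusted p = 0.000281, further probe set -0.84).

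The effect at 24 hpf differed from that at 48 hpf, by the interaction term of the same fit, for 225 probe sets (1.45%) and 159 genes (1.81%). Some genes changed more at the earlier age. The sodium pump genes atp1a1a.2 and atp1b1b changed by -0.56 and -0.30 at 48 hpf, neither called (interaction adjusted p = 0.0238 and 0.0275), and foxi1 by 0.16 (adjusted p = 0.00403). The secreted inhibitor dkk1b shrank from -1.23 to -0.36 (adjusted p = 0.0102), bmp5 from -1.39 to -0.68 (adjusted p = 0.049), and pfkfb4b from 1.01 to -0.19 (adjusted p = 0.00711).

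Other genes showed little at 24 hpf and much at 48 hpf. The fin fold genes and2 and and3 changed by -0.35 and -0.20 at 24 hpf and by -3.53 and -2.82 at 48 hpf, and cldn11a by -0.19 and -3.86. At 24 hpf the means of all 3 genes lay below the foreign sequence median in both genotypes. The p53 targets mdm2 and phlda3 went from 0.01 and 0.47, neither called, to 1.66 and 2.04. The p53 list of 18 genes had 12 members called higher and 2 lower at 48 hpf, against 3 and 1 at 24 hpf. Of all genes, 9.66% were called higher and 8.18% lower at 48 hpf, against 3.61% and 5.08% at 24 hpf. Of 12 sterol synthesis genes limma called 0 at 24 hpf, with 1 at an unadjusted p under 0.05, and 10 higher and 1 lower at 48 hpf, and for hmgcs1 (-0.16 and 1.58) the difference passed (interaction adjusted p = 0.045).

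**Figure D5:**
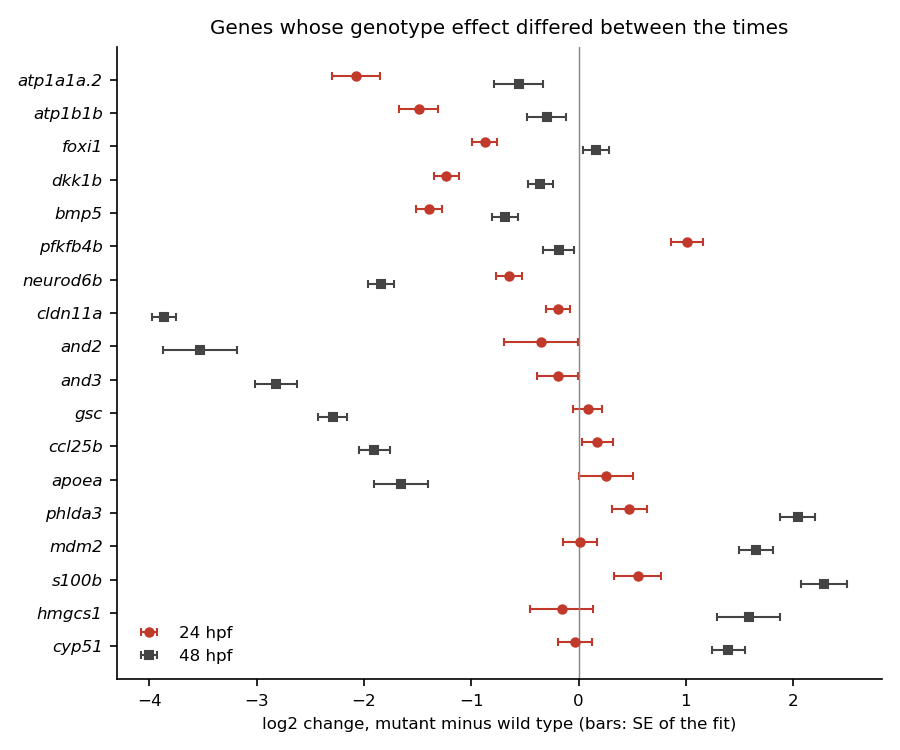
Log2 change (mutant minus wild type, horizontal axis) at 24 hpf (red circles) and 48 hpf (black squares) for 18 genes whose genotype effect differed between the ages, with the SE of the fit as bars. The top genes changed more at 24 hpf, and most of the others lie near 0 at 24 hpf and move far to either side at 48 hpf.

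Genes beside rad21a were examined because a mutant allele carries its chromosome segment with it. By gene order in the GRCz12tu annotation of chromosome 16, limma called 0 of 17 measured genes within 25 protein-coding genes of rad21a and 0 of 29 within 50, with 3 and 6 at an unadjusted p under 0.05. Within 100 genes 4 of 61 (6.56%) were called and within 200 genes 10 of 102 (9.80%), against 36 of 296 (12.2%) on the rest of the chromosome and 710 of 8321 (8.53%) on the others.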

How the data were processed

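Whole-embryo RNA was measured on 16 Affymetrix arrays in 4 groups of 4. The authors deposited linear intensities per probe set. GCOS, RMA and affy are named in the submitters' processing notes, and of the background correction and scaling no more is given there. No counts exist, so the number of arrays limits the precision. Of 15617 probe sets, 115 controls were left out, and log2 of the intensity was tested for the other 15502. Per the deposited annotation 10795 had 1 gene symbol, 135 several and 4572 none. For each of 8793 genes the brightest probe set on average over 16 arrays was taken.

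A group-means model over all 16 arrays was fitted with limma 3.58.1 (R 4.3.3), with 12 residual degrees of freedom and Benjamini-Hochberg adjustment over all probe sets. Each SE is that of the fit, and all tests were two-sided. The 3' to 5' control difference was tested by exact permutation with SciPy 1.17.1. The fit was tested on simulated data.

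The members and the 100 gene lists were chosen with earlier results of these data known. Genes named were rad21a, the 25 largest called changes in each direction whose arrays did not overlap, up to 5 members of each list by adjusted p, all called members of lists with 5 or fewer, and the 6 largest interactions in each direction. Of these, the text describes a selection made after the values were seen. The genes pprc1, mcmbp, mybl2b, suz12a, gdf3, fstl1b, s1pr1 and ptgs2a lay outside that rule. Sequences were not used here. Alternatives were other scalings, a pseudocount of 32, a filter on dim probe sets, array weights, a replicate block, another variance prior, the mean of a gene's probe sets, the 24 hpf arrays alone, and single arrays left out.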

Additional observations from a re-analysis of the deposited data

Results flagged for a closer look

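Among 312 groups of 4 arrays examined for the genes named, 19 (6.09%) had 1 array far from the other 3 by Dixon's criterion, which chance alone meets in about 1 of 20 groups. Of the 19, 9 concerned wild type replicate 1. Its log2 intensity stood high for imp4 (8.215), mrpl12 (9.144) and pole4 (7.744) and low for e2f7 (3.955), kdm1a (9.302), myhz1.3 (10.73), pvalb1 (5.637), sparc (10.55) and erg (4.555). Wild type replicate 2 stood apart for polr3d (7.213), ccnb2 (7.28) and gja2 (5.777). Among mutants, replicate 1 stood apart for inhbb (6.136), eya1 (6.836) and smyhc1 (10.54), replicate 2 for rrs1 (7.051) and pax9 (5.278), and replicate 4 for atp1a1a.2 (6.688) and ccl25b (4.034).

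For 18 of the genes named, the genotype effect differed between ages by limma's interaction term, as it did for 1.81% of all genes. Many of the 18 were named for their large interaction, so their number followed in part from the naming rule. As the effect at 24 hpf minus that at 48 hpf in log2 units, the difference was -0.71 for bmp5, -0.88 for dkk1b, -1.52 for atp1a1a.2, -1.19 for atp1b1b, -1.04 for foxi1 and 1.198 for pfkfb4b. These genes changed more at 24 hpf. It was 1.19 for neurod6b, 3.67 for cldn11a, 3.18 for and2, 2.62 for and3, 2.38 for gsc, 1.92 for apoea and 2.08 for ccl25b. These were lower in mutants at 48 hpf, and of them neurod6b alone was called at 24 hpf, where gsc, apoea and ccl25b had changes above 0 that were not called. It was -1.74 for hmgcs1, -1.43 for cyp51, -1.65 for mdm2, -1.57 for phlda3 and -1.74 for s100b, which rose at 48 hpf.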

How the results depend on the processing

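The number of probe sets called at 24 hpf stayed within 1.5 times of 1139 under every alternative apart from array weights and single arrays left out. With array weights it was 2908 (1425 higher, 1483 lower), and 530 differed between ages in place of 225. Leaving out single arrays gave 646 to 1192 calls, 272 to 552 higher, 374 to 640 lower and 125 to 171 that differed between ages. The acta1 control difference was 0.585 to 0.656 without single arrays, where 3 against 4 arrays cannot reach the threshold. The deviations of same-numbered arrays correlated at 0.426, 0.305 and 0.392 for replicates 1, 3 and 4 and at -0.307 for replicate 2. Unlike-numbered arrays ranged from -0.484 (wild type replicate 1 with mutant replicate 4) to 0.385 (wild type replicate 1 with mutant replicate 2). The numbers were thus not shown to pair the arrays. With the replicate block 1128 probe sets were called (496 higher, 632 lower) and 200 differed between ages. Under it polr3d, farsa, hells, rarab, exoc6b, snx3, ap2b1 and gja2 were not called, and pvalb1 was. Of 143 called genes named, 97 were called under every alternative and 46 lost the call under at least 1; the cause was not tested. Those of neurod6b and atp1a1b ended with the pseudocount, and that of fbln1 with the mean of its probe sets. The change of cldng turned to -0.20 with the mean of its probe sets. Changes near 0 turned sign for cyp51 (0.050 when wild type replicate 1 was omitted, 0.026 for mutant replicate 4, range -0.119 to 0.050 over single arrays) and mdm2 (-0.0037 with cyclic loess, -0.0065 and -0.036 when wild type replicates 3 and 4 were omitted, -0.038 for mutant replicate 3, range -0.038 to 0.058). Genes near background have compressed changes.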
